A study of Mus musculus with 4 samples.

Results

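The regions described here are the rows of the Dtt list with a splice length from 50 to 1000 bp, where splice length is the number of bases that separate both mapped parts of a read on the genome. The rule finds 840 regions in 754 listed genes, which is 33.2% of the 2533 Dtt regions and part of 2588 regions in the series as a whole. The series holds 4 RNA-Seq libraries of mouse embryonic fibroblasts (MEFs) of the C57BL/6 strain, 1 for each genotype in each of 2 experiments. The Dtt list comes from *Ire1*α heterozygous (Het) MEFs given 1 mM dithiothreitol, a reducing agent that disturbs disulfide bonds in the endoplasmic reticulum (ER), for 4 hours. It is set against *Ire1*α knockout (KO) MEFs, which the sample labels call untreated and the study's methods describe as treated in the same way. The other experiment used thapsigargin (Tg), an inhibitor of the ER calcium pump, at 500 nM for 4 hours in Het cells, gave a list of 55 regions, and used another knockout allele. By the methods, the KO allele of the Dtt experiment removes both the kinase and the RNase domain. No region of the Dtt list has a number in the KO columns, so no KO level can be given for any of them. The list gives no expression levels, so the fibroblast label was not checked against marker genes. With a single Het library, no value below has a replicate check, and every test and interval covers counting over regions or reads only.

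Introns are removed from a pre-mRNA by the spliceosome, which recognises a donor site at the 5′ end of the intron and an acceptor site at its 3′ end. Most introns begin with GT and end with AG, a small class begins with GC, and the acceptor usually follows a run of pyrimidines. Donors pair with the U1 and U6 small nuclear RNAs through the bases around the GT. Ire1α cuts *Xbp1* mRNA outside this machinery, at sites without GT-AG ends, and the pipeline of the study was built to find such gaps. The bases at the ends of each gap therefore show which kind of site a region uses.

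The ends of the gap were read on the mm9 genome, on the strand of the gene. Of the 840 regions, 730 could be placed with GT-AG ends, which is 86.9% with a 95% Wilson interval of 84.5 to 89.0%. GC-AG ends were found for 26 regions, or 3.10%. For 82 regions, or 9.76%, neither GT-AG, GC-AG nor AT-AC was found on the strand of the gene. For the last 2 regions no annotated gene was found.

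The sequences below are the splice sites of regions with many reads or with a short distance to an annotated site, since they show what the common kinds of region look like. They are read 5′ to 3′ on the strand of the gene from mm9, and capitals mark the GT or GC of a donor and the AG of an acceptor. Where a line holds 2 pairs of capitals, one is the site used by the region and the other is the nearest site of the GENCODE vM1 annotation that is joined to the same partner.
*Trp53* donor, chr11:69400462-69400490, plus strand: ggcttatggaaactGTgagtggatctttt
*Trp53* acceptor, chr11:69400859-69400887, plus strand: ttgtcccatccacAGccatcacctcactg
*Sf3a2* donor, chr10:80266455-80266483, plus strand: ccattgctttcaagGTagcgaccctacag
*Sf3a2* acceptor, chr10:80266531-80266559, plus strand: cttggggtgctgcAGcctctgactttctc
*Canx* acceptors, chr11:50110624-50110653, minus strand: attttctgtcttAGaAGagaaacagaagag
*Pan2* acceptors, chr10:127751222-127751251, plus strand: ctcacctctctcAGcAGtttctgctcatca
*D10Ertd610e* acceptors, chr10:126621265-126621295, minus strand: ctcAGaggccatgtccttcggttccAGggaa
*Usp19* donors, chr9:108402326-108402354, plus strand: cagcgcagtgacGTggGTgagggcacaca
*Mrpl28* donors, chr17:26261645-26261673, plus strand: attctcaagGCaagcagggGTtagtgcac
*Bub3* acceptor, chr7:138705797-138705825, plus strand: atttcactgtggcAGgatttggaatggaa
In *Canx* the second AG is the one the region uses, and in *Pan2* and *D10Ertd610e* it is the first. In *Usp19* the first GT is used and in *Mrpl28* the second pair of capitals, a GT 10 bases after an annotated GC donor.

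The splice lengths ran from 51 to 998 bp with a median of 380.5 bp and quartiles of 172.75 and 657.25 bp. The densest bin was 100 to 199 bp with 172 regions, or 20.5%. From there the counts went down, though not at every step, to 54 regions at 900 to 1000 bp. The bin of 50 to 99 bp, which is narrower than the others, held 79 regions. The length chose the regions, so these values are a description only. The shortest members included *Pfdn1* at 51 bp and *Tnip1* and *Lrrc47* at 52 bp, each with 2 reads. Of these, *Lrrc47* had GT-AG ends and the others no motif on the strand of the gene, and each gap lay inside 1 annotated exon. Just under the limit lay *Vim* at 47 bp, with GT-AG ends, and *Clta* at 45 bp. The longest members were *Actn1* and *Mpi* at 998 bp with 3 reads each, and *Anapc1* and *Fam198b* at 996 bp with 2 reads each. All 4 had GT-AG ends and an annotated donor. Just over the limit, *6720463M24Rik*, *Unc50* and *Eif3l* had regions of 1014 bp, also with GT-AG ends. Around the upper limit all of these regions thus had GT-AG ends, whereas those around the lower limit were mixed.

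**Figure D1:**
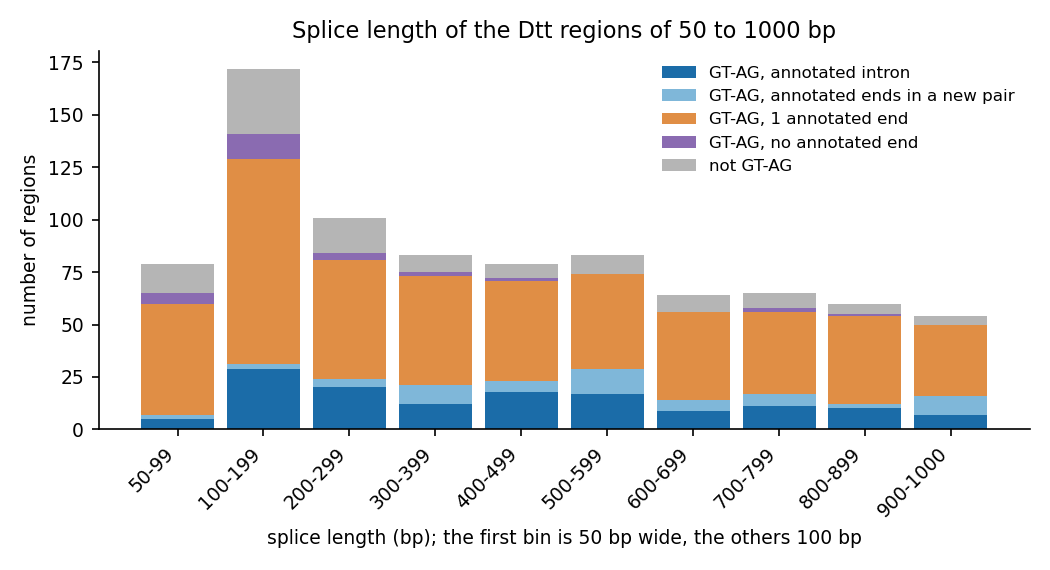
Number of regions (vertical axis) by splice length in bp (horizontal axis), stacked by the kind of ends. The bin of 100 to 199 bp holds 172 regions, and GT-AG regions with 1 annotated end are the largest part of every bin. The first bin, 50 to 99 bp, is narrower than the others.

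By length bin, the GT-AG share was 82.3% (65 of 79) below 100 bp, 82.0% (141 of 172) at 100 to 199 bp and 83.2% (84 of 101) at 200 to 299 bp. In the 7 bins from 300 bp upwards it lay between 87.5 and 92.6%. The Wilson intervals of neighbouring bins overlapped. Against the 1214 Dtt regions over 1000 bp, of which 94.0% had GT-AG ends, the share of the 840 regions was lower (odds ratio 0.425, Fisher's exact p = 6.02e-08, two-sided as all tests here, adjusted p = 2.11e-07). Against the 479 regions under 50 bp, of which 2 or 0.418% had GT-AG ends, it was higher (odds ratio 1583, Fisher's exact p = 2.24e-247). The compared classes are set by splice length, so both tests only describe how the GT-AG share goes with length in this list. Adjusted p-values are Benjamini-Hochberg values over the 7 tests made. A gap of any length with several possible placements was given GT-AG ends if any placement had them.

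Supporting reads were few. Of the 840 regions, 625 had 2 reads, the minimum for listing, 150 had 3, 44 had 4, and 21 had 5 or more. Together they carried 2007 of the 6436 reads in the Dtt list, or 31.2%. Regions with 3 or more reads made up 25.6% of the members (Wilson interval 22.8 to 28.7%), 22.7% of the regions over 1000 bp (20.5 to 25.2%) and 22.3% of the regions under 50 bp (18.8 to 26.3%). These intervals overlap. Regions with 5 or more reads made up 2.50% of the members (1.64 to 3.79%) and 2.80% of the longer regions (2.01 to 3.89%), against 7.10% of the regions under 50 bp (5.12 to 9.76%), whose interval does not overlap that of the members. The highest value was 10 reads here, 12 among the longer regions and 173 among the shorter ones. Within the members, 3 or more reads were found for 37.7% of the 138 annotated introns with GT-AG ends, 26.8% of the 56 new pairs of annotated ends, 23.3% of the 292 regions with an annotated donor only, 24.8% of the 218 with an annotated acceptor only, and 18.3% of the 82 without a motif on the strand of the gene.

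**Figure D2:**
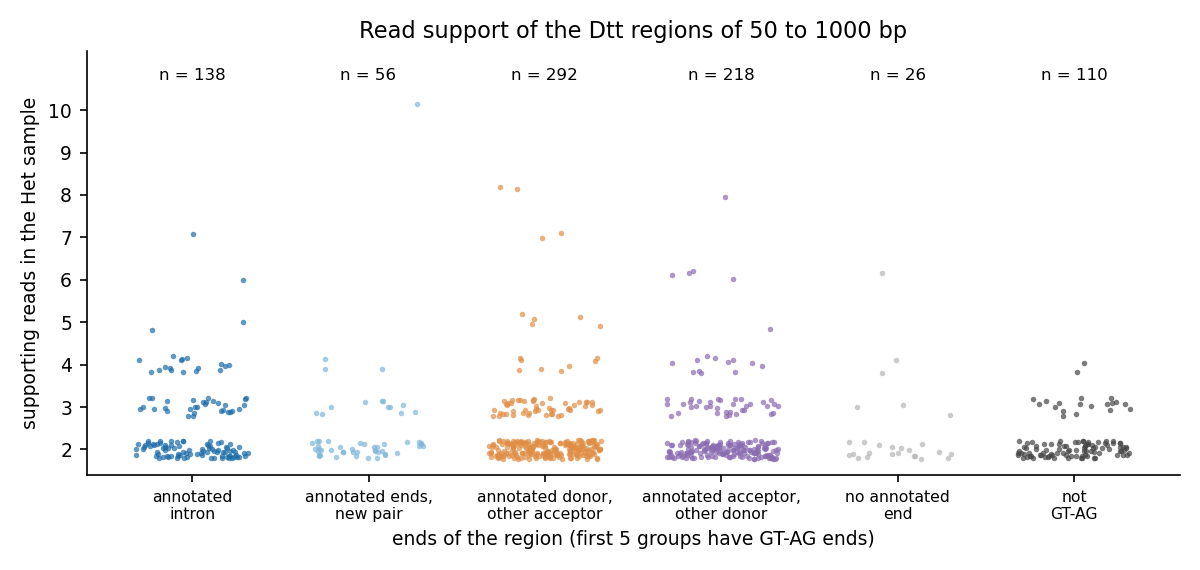
Supporting reads in the Het sample (vertical axis) for each of the 840 regions, grouped by the ends of the gap (horizontal axis). Points are spread slightly around whole numbers. Most regions sit at 2 reads in every group, and the region with 10 reads is a new pair of annotated ends.

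There were 13 regions with 6 or more reads. The first was in *Trp53*, which encodes the p53 tumour suppressor, with 10 reads and 398 bp (ENSMUSG00000059552.6, chr11:69400476-69400873). Its donor and acceptor are both annotated but not joined in the annotation, and the gap holds 1 annotated exon of 22 coding bases. A transcript with this junction skips that exon, and 22 is not a multiple of 3. *Canx*, the ER lectin chaperone calnexin, had 8 reads and 139 bp (chr11:50110637-50110775). Its donor was annotated and its acceptor lay 3 bases inside the coding exon, so that 3 coding bases were removed with the intron.

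*Mrpl28*, a protein of the mitochondrial ribosome, had 8 reads and 538 bp (chr17:26261664-26262201), with an annotated acceptor and a donor 10 bases inside the intron. *Bub3*, a spindle checkpoint protein, had 8 reads and 691 bp (chr7:138705121-138705811), with an annotated donor and an acceptor 1036 bases before the annotated one. These 3 regions with 8 reads thus used a site that is moved to very different degrees. *AA408296* had 7 reads and 717 bp (chr1:194940082-194940798), with an acceptor 115 coding bases inside the exon. *D10Ertd610e* had 7 reads and 157 bp (chr10:126621291-126621447), with an acceptor that keeps 22 intron bases. *Sf3a2*, a subunit of the U2 snRNP, had 7 reads and 77 bp (chr10:80266469-80266545), and its gap is an intron of Sf3a2-003 and Sf3a2-004.

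The 6 regions with 6 reads were found in *Zufsp*, *Tmem106c*, *Tctex1d2*, *Cav1*, *Mmp2* and *Usp19*. *Usp19*, an ER-anchored deubiquitinase, had 84 bp (chr9:108402338-108402421) and a donor that removes 4 coding bases. *Cav1*, the main protein of caveolae, had 562 bp (chr6:17257319-17257880), which is an intron of Cav1-007. *Mmp2*, a secreted gelatinase, had 461 bp (chr8:95376613-95377073) inside 1 exon, in UTR sequence, with GT-AG ends of which neither is annotated. *Zufsp*, *Tmem106c* and *Tctex1d2* had an annotated acceptor and a donor away from the annotated one by 648, 179 and 931 bases. All 13 regions had GT-AG ends, and all but *Mmp2* used at least 1 annotated site.

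Among the 730 GT-AG regions, 704 or 96.4% used an annotated splice site for 1 or both ends. The 138 annotated introns (18.9%) had a median length of 421.5 bp, and 28 of them lay inside an exon of another transcript of the gene. The 56 new pairs (7.67%) had a median length of 563 bp, and 48 contained at least 1 annotated exon. In 35 of these 56, every exon base between the ends was coding, and for 10 of them the removed coding bases were a multiple of 3. An annotated donor with another acceptor was found in 292 regions (40.0%), and an annotated acceptor with another donor in 218 (29.9%). The 26 regions with no annotated end (3.56%) were short, with a median of 151 bp, and 20 lay inside 1 annotated exon.

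Annotated introns, with any ends, made up 16.8% of the 840 members and 18.4% of the longer regions (odds ratio 0.896, p = 0.378 in the same exact test). With annotated sites allowed within 5 bp at either end, the shares were 30.5% and 24.6%, and the direction turned (odds ratio 1.34, p = 0.00395, Fisher's exact test). The study left out regions within 5 bp of a UCSC known junction, and the annotation used here is another one. New pairs of annotated ends made up 27.7% of the GT-AG regions over 1000 bp (316 of 1141, Wilson interval 25.2 to 30.4%) and 7.67% of those of 50 to 1000 bp (5.95 to 9.83%). An annotated exon lay inside 306 of the 316 longer ones and 48 of the 56 members. Such regions span that exon as well, so their share is tied to the length that sets the classes. Of GT-AG regions with exactly 1 annotated end, the other end was the donor in 42.7% of the members (218 of 510) and in 53.7% of the longer regions (315 of 587). This difference passed the threshold (odds ratio 0.645, Fisher's exact p = 0.00035, adjusted p = 0.00049), so that in this length class the unannotated site was more often the acceptor.

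How far a site had moved was described separately for acceptors and donors of GT-AG regions, without a test. The median distance was 32 bases for the 292 acceptors and 211.5 bases for the 218 donors. Distances of 30 bases or fewer were found for 48.6% of the acceptors (Wilson interval 43.0 to 54.3%) and 28.4% of the donors (22.9 to 34.8%). The commonest acceptor distances were 3 bases with 30 regions, 4 bases with 23 and 5 bases with 12, whereas no donor was moved by 3 bases. The commonest donor distance was 4 bases with 13 regions. The study had left out regions within 5 bp of a UCSC known junction. The 86 shifts of 5 bases or fewer are therefore only those that passed this filter, and the counts at these distances depend on it. At these distances a second AG or GT stands close beside the annotated one, as in the *Canx*, *Pan2* and *Usp19* sequences above.

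**Figure D3:**
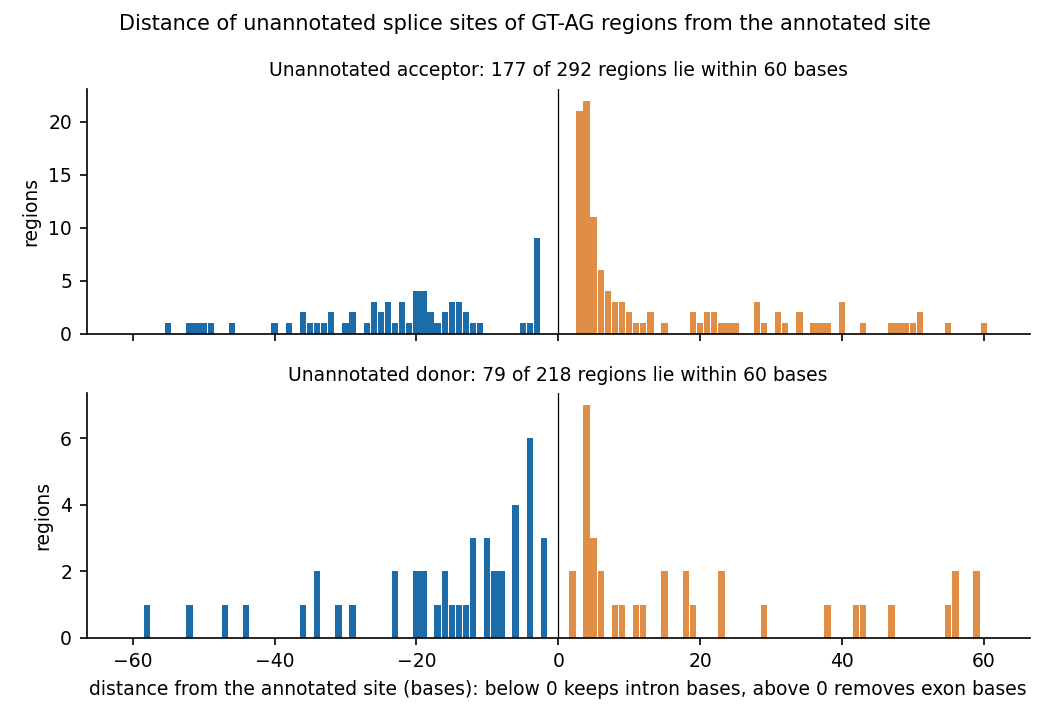
Number of regions (vertical axes) by distance in bases from the annotated site (horizontal axis), for unannotated acceptors (top) and donors (bottom) of GT-AG regions. Below 0 the unannotated end lies inside the annotated intron (keeps intron bases), and above 0 the region removes exon bases. The 177 acceptors within 60 bases peak at 3 and 4 bases, and none of them lies 6 to 10 bases before the annotated one. All regions had passed the study's filter on known junctions within 5 bp.

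The direction of the move differed between distances. A region is said to keep intron bases where its unannotated end lies inside the annotated intron. The region alone does not show whether those bases stay in the transcript. Of the 30 acceptors moved by 3 bases, 21 removed exon bases and 9 kept intron bases, and of the 23 moved by 4 bases, 22 removed exon bases. At 6 to 10 bases, 18 acceptors removed exon bases and 0 kept intron bases. Farther away, acceptors that keep intron bases were the larger group, with 74 of 158 more than 200 bases before the annotated site, against 6 of 134 that remove exon bases. For donors moved by 4 bases, 7 removed exon bases and 6 kept intron bases, and at 6 to 10 bases the counts were 4 and 11. These counts hold only regions that could be placed with GT-AG ends. Of the regions with no motif on either strand, 5 joined an annotated donor to an acceptor 6 to 10 bases before the annotated one, in *Slc38a2*, *Gm16515*, *Trip12*, *Gabpa* and *Usp10*, named after their values were seen.

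Of the 510 regions with 1 annotated end, 321 kept intron bases and 189 removed exon bases, and in 161 of these 189 the removed bases were wholly coding. The shift was a multiple of 3 in 30.1% of the 163 regions whose shifted bases were wholly coding (49 regions) and in 36.3% of the other 347 (126 regions). The difference did not pass the threshold (odds ratio 0.754, Fisher's exact p = 0.194).

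The bases of the sites differed between annotated and unannotated ends. A G at the fifth intron base, which pairs with U1 and U6, was found in 79.8% of 486 annotated donors (Wilson interval 76.0 to 83.2%) and in 66.8% of 244 unannotated donors (60.7 to 72.4%). The share was lower at unannotated donors (odds ratio 0.508, Fisher's exact p = 0.000173, adjusted p = 0.000304). The last exon base was G in 85.2% of the annotated and 73.0% of the unannotated donors, and the fourth intron base was A in 58.6% and 44.7%. Among the 15 bases before the AG, pyrimidines made up 78.2% ± 11.2 (SD over 412 annotated acceptors) and 68.5% ± 13.8 (SD over 318 unannotated acceptors). The difference of -9.72 percentage points passed a two-sided permutation test over regions, with p = 2e-05, the smallest that 100000 permutations can give (adjusted p = 4.67e-05). Where an acceptor lies a few bases inside the exon, as in *Canx*, the 15 bases also hold the annotated AG and exon bases. Of the 292 acceptors joined to an annotated donor, 72 removed 10 or fewer exon bases. How much of the difference this makes up was not tested. The ranges overlap widely. The unannotated sites of single regions can be rich in pyrimidines, such as that of *Pan2*, 3 bases before the annotated one.

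**Figure D4:**
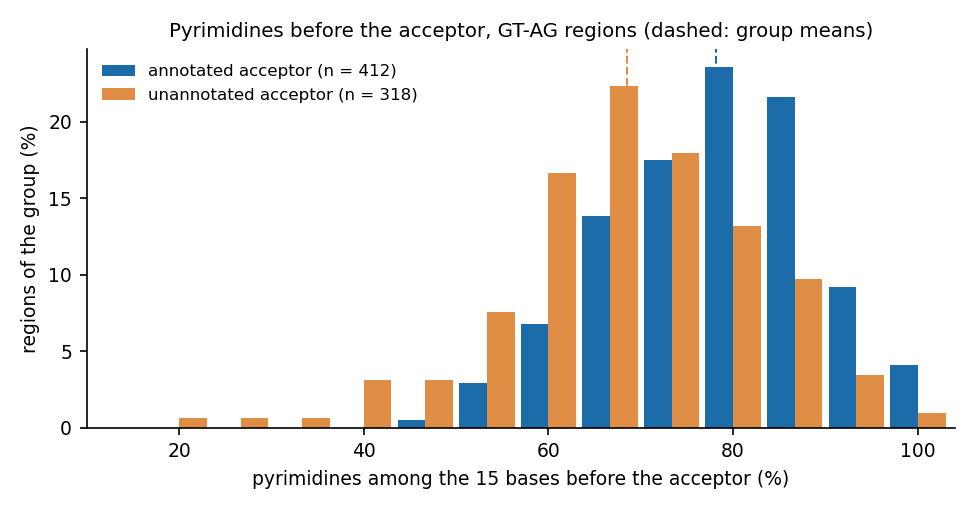
Share of regions in each group (vertical axis, %) by the percentage of pyrimidines among the 15 bases before the acceptor (horizontal axis), for 412 annotated and 318 unannotated acceptors of GT-AG regions. The dashed means lie at 78.2% and 68.5%.

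The 26 GC-AG regions had a median length of 247.5 bp, and 4 had 3 or more reads. Only 5 of their donors were annotated, against 20 of their acceptors. Their donors had A at the third intron base in 76.9%, with a Wilson interval of 57.9 to 89.0%, and G at the fifth in 73.1% (53.9 to 86.3%). One GC-AG region lay in *Eif4g1*, with 113 bp and a GC donor 6 bases after the annotated GT:
*Eif4g1* donors, chr16:20681985-20682013, plus strand: gcaagacccagGTactaGCaagtcttacc
A GC-AG region also stood in *Fhl1*, a LIM protein gene, with 85 bp and 2 reads. Its annotated acceptor at the upper boundary 54045021 of chromosome X is also the upper boundary of the *Fhl1* region in the Tg list, which is 1797 bp long with 4 reads. It was the only member with a boundary within 5 bp of a Tg region of the same gene, although 10 genes had both a member and a Tg region.

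Of the 82 regions without a motif on the strand of the gene, 21 had GT-AG ends on the other strand, of which 1 was an annotated intron there, and 58 had none of the motifs on either strand. The 82 regions had a median length of 252.5 bp and at most 4 reads. In 14 of them, or 17.1%, more than 5 placements of the gap were possible, against 8.08% of the GT-AG regions. Of the 58, 21 lay inside 1 annotated exon. The longest repeat among the 58 was in *Pigt*, a subunit of the GPI transamidase in the ER, where a gap of 160 bp with 4 reads in UTR sequence, as placed, begins with 27 bases that are repeated directly after it. In *Lrrc47*, a gap of 100 bp begins with 14 bases repeated in the same way, and in *Gm1821* a gap of 117 bp begins with 8 such bases. Each of these gaps thus holds 1 copy of the repeat, which of the copies was left out cannot be told apart, and the ends have no single position.

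In 73 genes there were 2 or more members, with 2 in 62 genes, 3 in 9 and 4 in 2. *Aebp1*, which encodes a secreted collagen-binding protein, and *Eif4g1*, the scaffold of the cap-binding complex, had 4 each. The *Aebp1* regions were 72, 193, 404 and 591 bp long with 2, 4, 2 and 2 reads, all with GT-AG ends. The *Eif4g1* regions were 113, 178, 220 and 247 bp long with 2, 2, 4 and 4 reads. The 220 bp region begins 6 bases after the 247 bp region, which is an intron of Eif4g1-002, and ends 21 bases before it. The 9 genes with 3 members were *Fn1*, *Fam76b*, *Apba3*, *Mthfsd*, *Col1a1*, *Pan2*, *Hells*, *Tgfb1i1* and *Tspan4*.

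*Fn1*, the matrix glycoprotein fibronectin, had GT-AG regions of 683 and 828 bp and a gap of 114 bp in UTR sequence without a motif, each with 2 reads. The 828 bp region removes 77 coding bases with its intron. *Col1a1*, the alpha 1 chain of collagen I, had a GT-AG region of 676 bp and gaps of 338 and 978 bp without a motif. *Apba3*, an adaptor protein gene, had regions of 125 and 490 bp with 4 reads each and of 192 bp with 2 reads. *Fam76b* had 2 annotated introns of Fam76b-002, of 475 bp with 5 reads and 120 bp with 4 reads, beside a region of 496 bp with 2 reads. In *Tspan4*, a tetraspanin, the regions of 77 and 80 bp had GT-AG ends and that of 209 bp had them only on the other strand. In *Mthfsd* the regions were 266, 548 and 645 bp long with 3, 4 and 2 reads, all with GT-AG ends. Several regions in a gene were thus mostly moves of different sites and not repeats of one.

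In 12 genes a pair of members had listed boundaries within 5 bp of each other, and in 10 of these pairs the placed gaps had exactly the same end. The other 61 genes with several members had no such pair. In 7 pairs the shared end was the acceptor and in 3 the donor. All 10 shared ends were annotated sites, so each pair joins 1 annotated site to 2 partners. The members of a pair differed by 12 to 504 bases, and in 2 of 10 pairs by a multiple of 3. None of the 12 pairs consisted of regions with 3 or more reads on both sides.

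**Figure D5:**
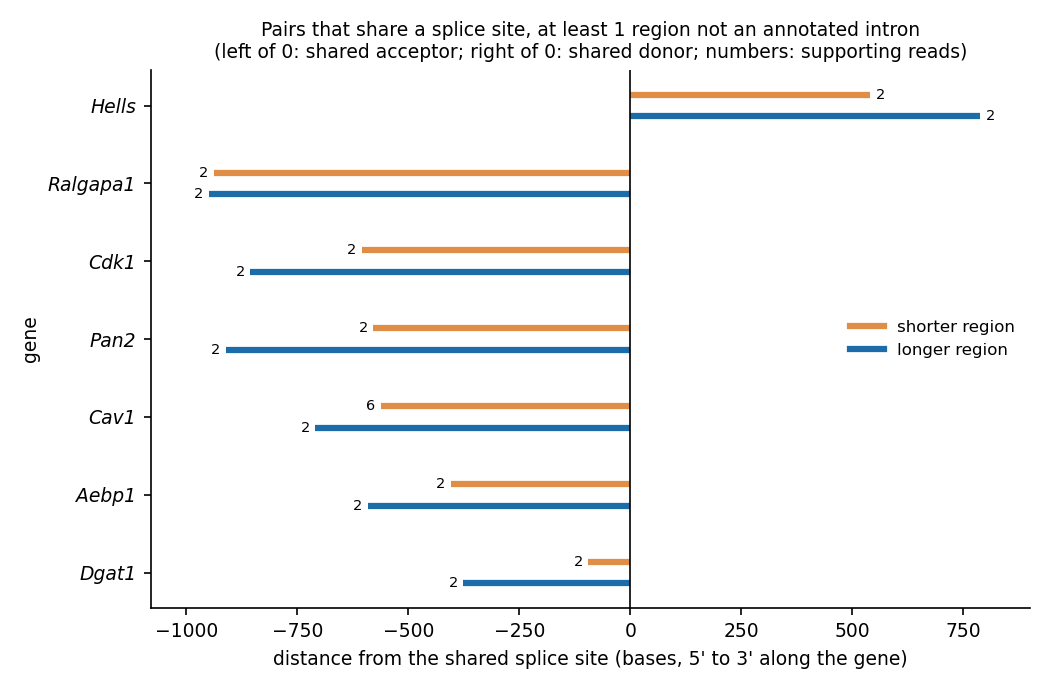
The pairs of regions with the same placed end in which at least 1 region is not an annotated intron, drawn as the distance in bases from the shared splice site (horizontal axis) for each gene (vertical axis). Bars to the left share an acceptor and bars to the right a donor. Numbers are supporting reads, and *Cav1* carries the highest, 6.

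The pairs with a shared acceptor included those in *Cav1*, *Aebp1*, *Cdk1*, *Pan2*, *Ralgapa1* and *Dgat1*. *Cav1* had 562 bp with 6 reads and 710 bp with 2 reads. *Cdk1*, the kinase that drives entry into mitosis, had 605 bp, an intron of Cdk1-003, and 856 bp, each with 2 reads. *Pan2*, the catalytic subunit of a deadenylase, had 579 and 911 bp, and *Dgat1*, an enzyme of triglyceride synthesis, had 95 and 376 bp, each with 2 reads. In *Aebp1*, *Pan2* and *Dgat1* the longer region was a new pair of annotated ends and the shorter one used an unannotated donor.

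The sequences of the shared and separate sites show how such a pair differs, with capitals as above.
*Aebp1* shared acceptor, chr11:5771233-5771261, plus strand: accttccctatatAGcaagtggaggtgac
*Aebp1* donor of the 591 bp region, chr11:5770643-5770671, plus strand: ccttcatggagcagGTgggataacctgag
*Aebp1* donors beside the 404 bp region, chr11:5770836-5770864, plus strand: caaccatgGTgtgaagacagGTactttgc
*Ralgapa1* shared acceptor, chr12:56818112-56818140, minus strand: ttcttcttcctacAGactttggcttcggg
*Ralgapa1* donors beside the 950 bp region, chr12:56819063-56819091, minus strand: gaaaatttgacaGCaaGTatctcttactg
*Ralgapa1* donors beside the 938 bp region, chr12:56819057-56819085, minus strand: ttgacaGCaagtatctcttactGTttgag
*Hells* shared donor, chr19:39021345-39021373, plus strand: agaatgctttacagGTacctaaccctaac
*Hells* acceptor of the 541 bp region, chr19:39021885-39021913, plus strand: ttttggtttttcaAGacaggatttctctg
*Hells* acceptor of the 789 bp region, chr19:39022133-39022161, plus strand: atgtaacacggaaAGtagcatacatgatg
In *Aebp1* the 404 bp region uses the first GT, 12 coding bases before the annotated one. In *Ralgapa1*, a subunit of a GTPase-activating complex for Ral, the annotated donor is a GC, and the regions use GT donors 4 and 16 bases after it. The *Ralgapa1* regions had 2 reads each and differed by 12 bases.

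The pairs with a shared donor were in *Hells*, *Trappc6a* and *Josd2*. *Hells*, a chromatin remodelling helicase, had 541 and 789 bp with 2 reads each, and both acceptors lay in the intron, 2778 and 2530 bases before the annotated one. *Trappc6a*, a subunit of a vesicle tethering complex, had 485 bp with 2 reads and 664 bp with 3 reads, which are introns of Trappc6a-004 and Trappc6a-006. *Josd2*, a deubiquitinase, had 146 bp with 4 reads and 650 bp with 2 reads, and both are annotated introns. In *Col1a1* and *Tgfb1i1*, the listed boundaries lay within 5 bp but the placed ends differed. The 2 *Col1a1* gaps had no motif. In *Tgfb1i1*, a focal adhesion protein, the acceptor of the 131 bp region lay 4 bases after that of the 657 bp region.

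A boundary was also shared between members and regions over 1000 bp, in 11 pairs, of which 10 had the same placed end, 7 at a donor and 3 at an acceptor. In *Serpina3g*, a serine protease inhibitor, regions of 876 bp with 4 reads and 448 bp with 2 reads are consecutive annotated introns of Serpina3g-003. A region of 1416 bp with 2 reads runs from the donor of the first to the acceptor of the second, which skips the exon between them. In *Tdp2*, a DNA repair phosphodiesterase, the annotated intron of 593 bp with 3 reads shares its donor with a region of 4759 bp with 4 reads. *Klhdc8a* had 356 bp with 3 reads and 1039 bp with 5 reads, and *Arhgef19* had 702 bp with 2 reads and 1032 bp with 5 reads. In *Src*, *Inf2*, *Anks3* and *Rnf14* the member had 2 reads. In *Arnt2* neither region had a motif on the strand of the gene.

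In 8 genes, a region that ends at an unannotated acceptor was followed by one that starts at an unannotated donor, so that both together enclose a stretch of intron as an exon would be. These were looked for after the regions had been seen. The outer ends of each pair are annotated sites joined to each other in the annotation, and no base of the 8 stretches lies in an annotated exon. In *H2afy2* and *Cnn1* both regions are members, and in the other 6 genes the partner is over 1000 bp. The stretches are printed in lower case between the AG and the GT in capitals, because their lengths and stop codons decide what a transcript would encode. The coordinates are those of the lower-case bases.
*H2afy2*, chr10:61203124-61203183, minus strand: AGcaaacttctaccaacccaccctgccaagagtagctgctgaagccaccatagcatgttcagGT
*Cnn1*, chr9:21911112-21911219, plus strand: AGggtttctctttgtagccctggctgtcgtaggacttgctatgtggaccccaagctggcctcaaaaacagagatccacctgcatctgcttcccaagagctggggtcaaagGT
*Mbnl1*, chr3:60400641-60400751, plus strand: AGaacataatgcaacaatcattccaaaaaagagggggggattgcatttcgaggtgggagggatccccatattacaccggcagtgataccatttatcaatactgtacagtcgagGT
*Ddb1*, chr19:10684282-10684317, plus strand: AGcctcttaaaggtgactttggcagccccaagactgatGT
*Ube2w*, chr1:16574765-16574810, minus strand: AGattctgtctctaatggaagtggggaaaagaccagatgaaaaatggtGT
*Alkbh2*, chr5:114575869-114575945, minus strand: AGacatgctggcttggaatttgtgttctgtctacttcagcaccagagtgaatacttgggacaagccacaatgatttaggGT
*Qrich1*, chr9:108432219-108432346, plus strand: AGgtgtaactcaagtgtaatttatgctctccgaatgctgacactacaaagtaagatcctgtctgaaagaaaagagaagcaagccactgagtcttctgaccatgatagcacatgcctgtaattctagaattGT
*Znhit6*, chr3:145262461-145262660, plus strand: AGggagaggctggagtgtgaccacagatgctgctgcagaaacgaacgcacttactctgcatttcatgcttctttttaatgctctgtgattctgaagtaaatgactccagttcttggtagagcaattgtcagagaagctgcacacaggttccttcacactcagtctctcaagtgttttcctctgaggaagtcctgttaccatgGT

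The stretches were 36 to 200 bases long, and 4 of the 8 had a length that is a multiple of 3. *H2afy2*, which encodes the histone variant macroH2A2, had 60 bases between regions of 699 and 913 bp with 3 reads each. *Cnn1*, the actin-binding protein calponin, had 108 bases between regions of 887 bp with 2 reads and 975 bp with 3 reads. *Mbnl1*, a splicing regulator, had 111 bases between regions of 954 and 6864 bp with 2 reads each. *Ddb1*, a DNA damage-binding protein, had 36 bases between regions of 1319 bp with 2 reads and 874 bp with 3 reads. Read on in the frame of the annotated coding exon upstream, the stretches of *H2afy2*, *Cnn1*, *Qrich1*, *Znhit6* and *Alkbh2* held a stop codon, and those of *Mbnl1*, *Ddb1* and *Ube2w* did not. Those of *Mbnl1* and *Ddb1* thus keep the frame, while that of *Ube2w*, a ubiquitin-conjugating enzyme, has 46 bases and shifts it. No single read was available to show that both junctions lie on 1 transcript.

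The 754 genes are 37.9% of the 1990 genes in the Dtt list. They were described by 7 lists of genes with known roles, which together hold 222 of the 754, and counted against the list genes with a Dtt region of any length. RNA splicing and mRNA processing had 36 of 57 genes with a member (63.2%). Of its 40 members, 37 had GT-AG ends, 9 were annotated introns and 14 had 3 or more reads. Besides *Sf3a2* with 7 reads, the highest were *Cpsf6*, a subunit of a cleavage factor, with 5 reads and 413 bp, and *Srsf11*, an SR protein, with 4 reads and 763 bp, an intron of Srsf11-008 that lies in UTR sequence. *Rbm12b* followed with 4 reads and 157 bp in UTR sequence.

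Ribosome and translation had 33 of 62 genes with a member (53.2%), and 30 of its 37 members had GT-AG ends. Besides *Mrpl28*, its members with the most reads included the *Eif4g1* regions of 220 and 247 bp with 4 reads each. ER folding, glycosylation and the secretory pathway, the processes that dithiothreitol disturbs, had 33 of 64 genes with a member (51.6%), and 32 of its 36 members had GT-AG ends. *Pofut2*, an ER fucosyltransferase, had 95 bp with 5 reads and removes 5 coding bases, and *Pdia5*, a protein disulfide isomerase, had 491 bp with 4 reads and removes 19. Of the list's other members with the most reads, *Canx* had 8 reads and an acceptor inside the coding exon, and *Pigt* had 4 reads and no annotated end.

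Cell cycle, DNA replication and repair had 38 of 49 genes with a member (77.6%), and 40 of its 41 members had GT-AG ends. It includes *Trp53*, *Bub3*, *Polm*, a DNA polymerase of end joining, with 113 bp and 4 reads in an intron of Polm-004, and *Anapc13*, a subunit of the anaphase-promoting complex, with 376 bp and 4 reads. Extracellular matrix and adhesion had 20 of 42 genes with a member (47.6%) and 31 members, of which 24 had GT-AG ends and 1 was an annotated intron. After *Mmp2* came *Adamts6*, a metalloprotease, with 704 bp and 5 reads, the *Aebp1* region of 193 bp, and *Ddr1*, a collagen receptor, with 662 bp and 4 reads. The acceptors of *Adamts6* and *Ddr1* keep 5 and 19 intron bases.

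Cytoskeleton and motors had 27 of 56 genes with a member (48.2%), and 29 of its 35 members had GT-AG ends. None had more than 3 reads, a level reached by *Actn1* at 998 bp, *Wdr1* at 102 bp and *Cnn1* at 975 bp, among others. Ubiquitin and proteasome had 35 of 78 genes with a member (44.9%), and 29 of its 37 members had GT-AG ends. After *Usp19* came *Ube2d3*, a ubiquitin-conjugating enzyme, with 773 bp and 4 reads, the *Josd2* region of 146 bp, and *Trip12*, a ubiquitin ligase, with 726 bp and 3 reads and no motif. All 7 shares lie above the 37.9% of all genes, but the lists were written with results of these data known, so nothing particular to a list is drawn from them.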

How the data were processed

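RNA-Seq of MEFs was used, with 1 Het and 1 KO library in each of the Tg and Dtt experiments. By the study's methods, the authors mapped reads to mm9 and UCSC known junctions with Bowtie, split the unmapped reads, mapped both parts, and joined split reads of equal splice length into regions. They dropped regions within 5 bp of a known junction or with a KO match. The counts the authors deposited are raw supporting reads in the Het sample for each region, from 2 upwards, and the splice lengths are in bp. The depth of the library was not used here, and 0 per-sample columns were left unused.

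The regions and the gene lists were chosen with earlier results of these data known. Genes were found for 826 of the 840 regions by symbol and for 12 by position in GENCODE vM1 on NCBIM37, the assembly that mm9 names. The gap was placed at every position within the boundaries or reached by sliding over equal bases (up to 100), and the placement was chosen by motif, in the order GT-AG, then GC-AG and then AT-AC, and after that by annotated ends. This preference can raise the share of GT-AG where several placements exist. Shares were compared with two-sided Fisher's exact tests and pyrimidines with a permutation test (100000 resamples), at a threshold of 0.05, and intervals are 95% Wilson intervals. Since no molecular identifiers were used, reads may stem from the same molecule, and regions are not replicates.

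Regions were named by rule: the 10 highest read counts with ties, genes with 3 or more members, genes with a shared boundary, the 3 shortest and longest with those beside the limits, and up to 4 members with the most reads in each list. *Fhl1*, the other regions with repeats, the pairs with longer regions and the 8 enclosed stretches were named after their values were seen. Some regions that the rule names are not reported here. The alternatives were 1 region per gene, placement within the boundaries only, either strand, at least 3 reads, other length limits, annotated sites within 5 bp, and other definitions of a shared boundary. The steps were tested on simulated data. The work was done in Python 3.11.15 with pysam 0.24.0, numpy 2.4.6 and scipy 1.17.1, and figures were drawn with matplotlib 3.10.9.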

Additional observations from a re-analysis of the deposited data

How the results depend on the processing

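Of 57 alternatives, 49 left the direction, the side of the threshold or the value of their result as given, 7 moved a value and 1 turned a direction. With at least 3 supporting reads, 215 of the 840 regions were left, the GT-AG share was 90.7%, the share of annotated introns was 25.1%, and 0 of the 12 pairs with a shared boundary were left, since each pair has at least 1 region with 2 reads. With an upper limit of 500 bp there were 515 regions. Reading either strand gave a GT-AG share of 89.4%. Allowing annotated sites within 5 bp raised the share of annotated introns to 30.5% and turned the odds ratio against longer regions from 0.896 to 1.34; the cause was not tested. No paired analysis was possible because the labels give no replicate numbers and only 1 library stands for each group. Most regions rest on 2 reads, which limits what can be said of any single one, and none has a KO value.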
